A study of Rattus norvegicus with 120 samples.

Results

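miR-139 is a microRNA whose hairpin precursor yields 2 mature strands, miR-139-5p and miR-139-3p, and both were followed here in the hippocampus of rats after status epilepticus (SE). They are 2 of the 623 mature miRNAs listed in the acute stage, the 629 in the latent stage and the 653 in the chronic stage, and both had more than 500 reads summed over the libraries of each stage. The pair was selected on its measured values in these rats, that is, on SE against control by onset age and stage, on the ratio of the arms, and on infancy against adult controls. The values of those contrasts are therefore given as a description. Whether an arm was called (adjusted p under 0.05) is stated beside the share of all miRNAs and read as no result.

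Small RNA was sequenced from the hippocampi of both hemispheres of male Wistar rats, 1 library per rat. Every rat, controls included, first received LiCl. SE was started with pilocarpine, a muscarinic agonist, on postnatal day 12 in infancy-onset rats and on day 60 in adult-onset rats. Controls had saline instead, and paraldehyde was given during SE to limit mortality. Rats were sampled 24 hours (acute), 1 week (latent) or 3 months (chronic) later. The acute stage has 9 adult-onset SE rats, 9 adult controls, 8 infancy-onset SE rats and 9 infancy controls. The latent stage has 10 rats in each of the 4 groups, and the chronic stage has 10, 10, 10 and 9. At 3 months clonic motor seizures were seen on video in adult-onset SE rats and not in the other groups. Within a stage the rats of the 2 onset ages also differed in age at sampling, and they carry separate ranges of library numbers, so age and any difference in handling cannot be told apart.

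The miR-139 gene lies inside Pde2a, the gene of a cyclic nucleotide phosphodiesterase that is abundant in forebrain neurons. After Dicer cuts the hairpin, one strand is usually kept in an Argonaute protein and the other is mostly lost, and the kept strand pairs with mRNAs through its seed. miR-139-5p is the strand usually kept. Its known targets in mammals include mRNAs of the insulin-like growth factor receptor IGF1R, the kinase ROCK2 and the NMDA receptor subunit NR2A.

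Both mature sequences are shown because the 2 arms behave differently below, and capitals mark the seed, bases 2 to 8. They are RefSeq sequences of the GRCr8 assembly.
rno-miR-139-5p: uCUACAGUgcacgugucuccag
rno-miR-139-3p: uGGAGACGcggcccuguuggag
The hairpin shows how the arms face each other, with the mature strands in capitals.
Mir139 hairpin: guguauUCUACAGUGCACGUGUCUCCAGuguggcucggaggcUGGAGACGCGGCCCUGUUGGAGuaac
The hairpin of 68 bases maps to chr1:165290859-165290926 on the plus strand, inside the span of Pde2a (chr1:165235623-165327466, same strand), and 14 bases separate the arms. Each mature strand has 22 bases and starts with U. The 5p strand has a GC content of 54.5% and the 3p strand one of 68.2%. Of the 666 miRNA names listed in any stage, 600 have a sequence in the RefSeq table, and 0 of them share either seed with miR-139.

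Libraries held from 309975 to 28111600 miRNA reads, with a median of 2296300 over 114 libraries. Levels are in CPM, that is, reads relative to the library total, with TMM factors set within a stage. The summed CPM of 8 neuron-enriched miRNAs, such as miR-9a-5p, miR-124-3p and miR-128-3p, ran from 205417 to 723416, and that of 4 liver and muscle miRNAs from 22.5 to 410.2. miR-9a-5p made up most of the neuron sum in acute SE rats, with means of 164926 CPM after adult onset and 293524 after onset in infancy. The sum medians there were 258179 and 350562 CPM. The sum can therefore differ in direction from most of its members. Between acute controls 6 of the 8 were lower in infancy, while the sum median was higher, at 353824 against 312287 CPM. The choroid plexus miRNAs miR-204-5p, miR-211-5p and miR-449a-5p summed to 8876 CPM in 1 acute infancy control (1-S32), against at most 1215 in the other 8 libraries of its group. They summed to 9036 and 4656 CPM in latent adult-onset SE rats (2-S5 and 2-S6), with a group median of 698. They were also high in 1 acute adult-onset SE rat (1-S6, 5260.4 CPM), 1 chronic adult control (3-S13, 4300.1 CPM) and 1 chronic infancy control (3-S37, 4744 CPM). Leaving out 1-S6, 2-S6, 3-S13 or 3-S37 moved no SE change of either arm to the other side of 0 or of the call.

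miR-139-5p was the far more abundant arm in every library. It gave 404 to 39438 reads (median 3073) and ranked between 35th and 110th among the miRNAs of a library. miR-139-3p gave 6 to 1134 reads (median 105) and ranked between 232nd and 319th. The 5p arm exceeded the 3p arm from 9.41-fold to 62.2-fold, with a median of 29.02-fold. Both of these extremes came from chronic infancy-onset SE rats. In one (3-S23) the 3p arm made up 9.57% of the miR-139 reads (95% Wilson interval 7.99 to 11.4, 108 of 1128 reads). In the other (3-S24) it made up 1.46% (0.672 to 3.16, 6 of 410 reads). The intervals cover counting error only.

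The highest mean levels of miR-139-5p were those of the acute adult rats. In order of the group means, in CPM ± SD, acute adult-onset SE rats (2423 ± 1096, n = 9) and acute adult controls (2318 ± 417, n = 9) came first, and latent adult controls followed (1641 ± 177, n = 10). The step of 677 CPM between the last 2 was the only one between neighbours in the order of 12 groups that exceeded the larger of their SDs. The other 9 groups ran from 1448 ± 378 in latent adult-onset SE rats down to 967 ± 204 in acute infancy-onset SE rats. Stages were scaled separately, so the order across stages holds only as far as their scales match.

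The order of miR-139-3p was another one. Its highest mean was that of acute infancy controls, at 75.2 ± 14.8 CPM (n = 9), and its lowest that of latent adult-onset SE rats, at 32.3 ± 13.05 (n = 10). None of the steps between neighbours exceeded the larger SD. Chronic and latent adult controls lay next to each other at 42.1 ± 7.96 and 40.8 ± 7.60 CPM.

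**Figure D1:**
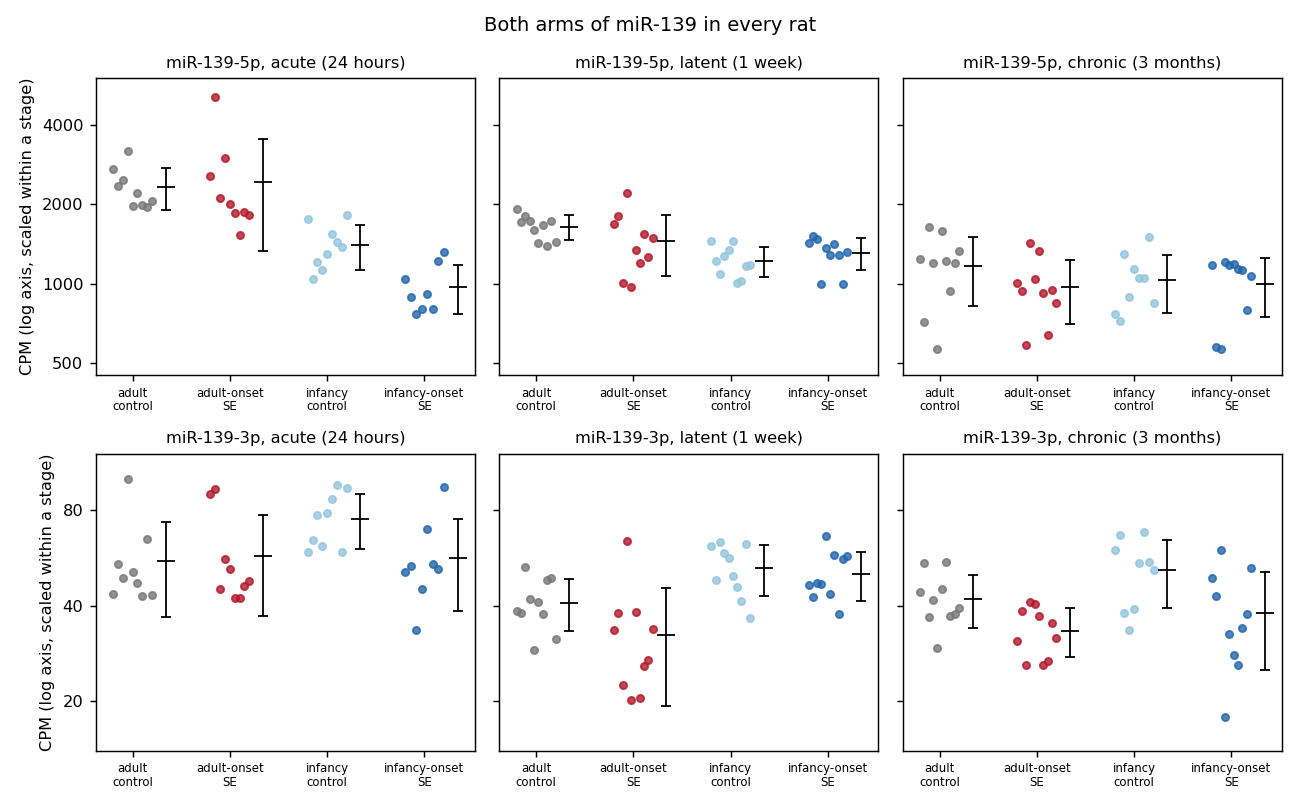
CPM of miR-139-5p (upper row) and miR-139-3p (lower row) on log axes in every rat, by group, in the acute, latent and chronic stage; each point is 1 rat and the black bars are mean ± SD. In the acute stage every infancy control lies below every adult control for 5p, while for 3p the infancy controls reach from 58.9 to 96.1 CPM, above the adult median of 49.1.

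In controls the 2 arms differed with age in opposite directions. In the acute stage miR-139-5p was at 1949.5 CPM in the lowest adult control, 2197 at the median and 3179 in the highest. Infancy controls had 1040.1, 1375 and 1821. All 9 infancy controls were below all 9 adult controls, and among all miRNAs 10.4% had infancy controls that lay wholly below the adult ones. The log2 fold change, infancy over adult, was -0.73 (SE of the estimate 0.17), a ratio of 0.604.

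miR-139-3p went the other way in the same rats. Adult controls had 42.8, 49.1 and 100.2 CPM at the lowest, median and highest, and infancy controls 58.9, 77.3 and 96.1. The groups overlapped, with all 9 infancy controls above the adult median, and the log2 fold change was 0.45 (SE 0.19). In this contrast 67.1% of 383 miRNAs passed an adjusted p under 0.05 in edgeR's quasi-likelihood test. Both arms were among them, which is read as no result since the pair was chosen on it. For 3p the call was lost when any one of 10 of the 18 control libraries was left out, with log2 fold changes from 0.39 to 0.60 over all 18. The 3 oligodendrocyte miRNAs, miR-219a-5p, miR-219a-2-3p and miR-338-3p, were all called lower in infancy, with sums from 473 to 1855 CPM against 4485 to 8046 in adult controls. Of 8 neuron miRNAs 5 were called lower and 1 higher, and of 6 microglia and myeloid miRNAs 2 lower and 2 higher. Of 2 choroid plexus miRNAs tested 1 was called higher. The part of any of these lists in the age difference of miR-139 was not tested.

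In the latent stage the opposite directions were smaller. miR-139-5p ran from 1386 CPM (median 1692) to 1924 in adult controls and from 1006 (median 1197) to 1446 in infancy controls, and 8 of 10 infancy controls lay below all adult controls. The log2 fold change was -0.43 (SE 0.11). For miR-139-3p the adult controls ran from 29.1 (median 39.8) to 53.1 CPM and the infancy controls from 36.5 (median 53.1) to 63.4, a log2 fold change of 0.35 (SE 0.16). Of 406 miRNAs 57.6% were called in this contrast, 5p among them and 3p not.

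In the chronic stage, when both groups were adult, the control groups overlapped for both arms. miR-139-5p ran from 563 CPM (median 1208) to 1645 in adult controls and from 721 (median 1045) to 1500.0 in infancy controls. The log2 fold change was -0.18 (SE 0.19). miR-139-3p ran from 29.35 (median 40.6) to 54.8 CPM and from 33.6 (median 54.4) to 68.3, with a log2 fold change of 0.30 (SE 0.17). Neither arm was called, where 6.56% of 442 miRNAs were.

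The ratio of the arms within a library does not depend on how libraries are scaled, while the age difference of each arm alone does. The ratio is given as log2 of 5p reads over 3p reads, with 0.5 added to each. In acute adult controls it ran from 4.90 to 5.94, with a mean of 5.42 ± 0.33 (SD, n = 9), and in acute infancy controls from 3.90 to 4.87, with a mean of 4.21 ± 0.31 (n = 9). The groups did not overlap, and the ratio was 1.21 lower in infancy controls on average, as its log2 difference was -1.21. As a share, the 3p arm made up 2.32% ± 0.53 of miR-139 reads in adult and 5.18% ± 0.97 in infancy controls. Of 110 miRNAs with both arms past the read minimum, 7.27% had control groups that did not overlap. The difference of miR-139 was the 4th lowest of the 110, whose median was -0.05.

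At 1 week the mean ratios of controls were 5.34 ± 0.28 in adult and 4.54 ± 0.27 in infancy rats (n = 10 each), a difference of -0.79. The groups overlapped, and it was the 8th lowest difference of 120 pairs. At 3 months they were 4.74 ± 0.50 (n = 10) and 4.31 ± 0.58 (n = 9), a difference of -0.43, the 37th lowest of 142. Compared with 1 week, the smaller difference at 3 months went with a lower ratio in the adult controls. The ratio of the infancy controls was not higher than at 1 week. In the acute stage the mean ratios were 5.42 in adult and 4.21 in infancy controls. Compared with the acute stage, the infancy mean was higher and the adult mean lower, both at 1 week and at 3 months. Stages are separate sets of libraries, and the change between stages was not tested.

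**Figure D2:**
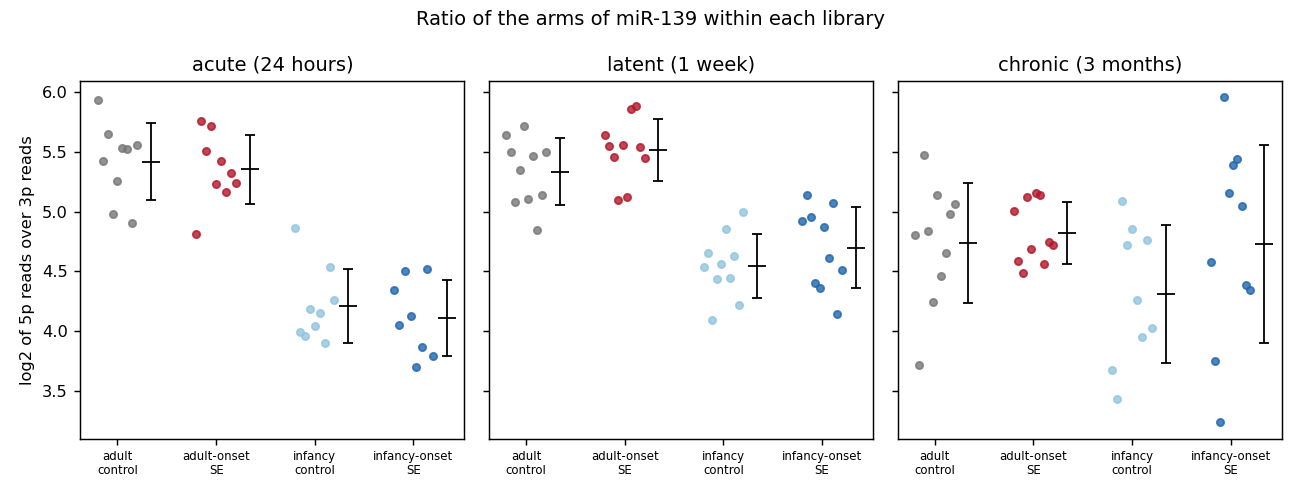
log2 of miR-139-5p reads over miR-139-3p reads in every library, by group and stage; points are rats and black bars are mean ± SD. Acute adult rats lie between 4.82 and 5.94 and acute infancy rats between 3.70 and 4.87, overlapping by only 1 infancy control, while at 3 months the spread is widest in infancy-onset SE rats, from 3.23 to 5.96.

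The arm ratio was also set side by side in SE rats of the 2 onset ages, after the control values were seen. Since the selection used the arm ratio, these values are a description too. In the acute stage it ran from 4.82 to 5.76 in adult-onset SE rats (mean 5.35 ± 0.29, n = 9) and from 3.70 to 4.52 in infancy-onset SE rats (mean 4.11 ± 0.32, n = 8). These groups did not overlap either, as for 4.55% of the 110 pairs. The difference was -1.24.

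In the latent stage the SE rats differed by -0.82, from 5.52 ± 0.26 to 4.70 ± 0.34 (n = 10 each). In the chronic stage the difference was -0.09, with 4.82 ± 0.26 in adult-onset and 4.73 ± 0.83 in infancy-onset SE rats (n = 10 each) and a standard error of 0.28. Whether the difference comes from age or from handling of the 2 onset ages cannot be told apart.

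**Figure D3:**
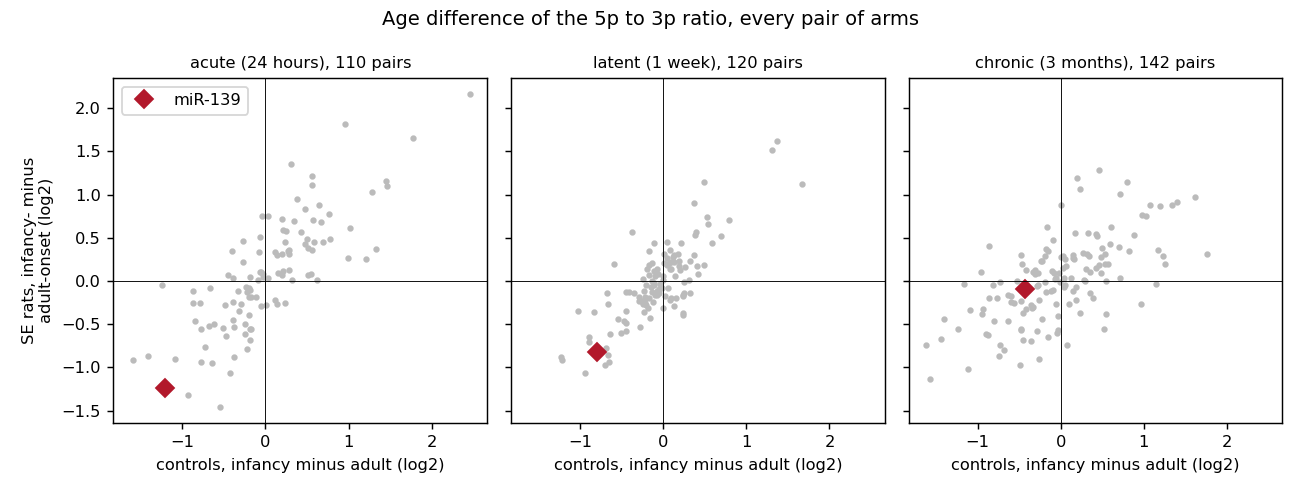
Difference of the log2 5p to 3p ratio between infancy and adult rats for every miRNA with both arms past the read minimum, in controls (horizontal axis) and in SE rats (vertical axis), by stage; each grey point is 1 miRNA and the red diamond is miR-139. miR-139 lies at -1.21 and -1.24 in the acute stage, at -0.79 and -0.82 in the latent stage and at -0.43 and -0.09 in the chronic stage.

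The levels of the arms in the same SE rats differed by stage. In the acute stage the log2 fold change, infancy-onset over adult-onset SE rats, was -1.32 (SE 0.18) for miR-139-5p. All 8 infancy-onset rats lay below all 9 adult-onset rats, as for 9.14% of miRNAs. For miR-139-3p it was -0.00 (SE 0.20). In the latent stage it was -0.15 (SE 0.11) for 5p and 0.62 (SE 0.16) for 3p, and in the chronic stage 0.05 (SE 0.18) and 0.21 (SE 0.17). On the TMM scale the ratio thus differed mostly through 5p at 24 hours and mostly through 3p at 1 week. Unlike the ratio, this split depends on the scaling between the ages. Of all miRNAs, 63.7% at 24 hours and 63.1% at 1 week were called between these SE rats. These level differences hold the SE changes used in the selection and carry no test.

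After SE itself, the clearest difference of miR-139-5p was in infancy-onset rats at 24 hours. Infancy controls had 1040.1 CPM at the lowest, 1375 at the median and 1821 at the highest, and infancy-onset SE rats 766, 902 and 1313. All 8 SE rats were below the control median and 5 were below every control. The means were 967 ± 204 (n = 8) and 1401 ± 271 CPM (n = 9), with a log2 fold change of -0.55 (SE 0.14), the 8th lowest of 383. It was called, where 4.96% of miRNAs were, which is read as no result since the selection used this value.

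The call rested on a narrow margin. Without 1 infancy control (1-S37) the log2 fold change was -0.53 and no longer called, and likewise -0.53 with all 4 acute groups in 1 fit. Over all 17 libraries left out in turn it ran from -0.62 to -0.50, and it was -0.51 without 1-S32, the control with high choroid plexus miRNAs. Summed CPM of 6 microglia and myeloid miRNAs ran from 859 to 1189 in the SE rats and from 723 to 913 in the controls, and the neuron list from 290234 to 455146 and from 281515 to 440985. Of the 8 neuron miRNAs, 4 had log2 fold changes above 0 and 4 below, with 0 called. The part of either list in the result was not tested, and in whole tissue fewer cells of a type and less RNA per cell cannot be told apart.

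miR-139-3p was lower in the same infancy-onset SE rats, at 33.5, 52.8 and 94.7 CPM (lowest, median, highest) against 58.9, 77.3 and 96.1 in controls. Of 8 SE rats, 6 were below every control, while 1-S30 was at 94.7. The log2 fold change was -0.44 (SE 0.19), not called, and -0.59 and called without 1-S30. Since both arms were lower, the ratio moved by only -0.10, from 4.21 ± 0.31 to 4.11 ± 0.32.

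In adult-onset SE rats at 24 hours the levels of both arms overlapped with those of controls. The SE libraries were shallower, with a median of 562003 reads against 1838740 and of 49 reads of 3p against 99. miR-139-5p ran from 1526 CPM (median 1996) to 5106 in SE rats, against 1949.5 (median 2197) to 3179 in controls. Of 9 SE rats, 4 were below every control and 1 was above every control. The log2 fold change was 0.06 (SE 0.18), and it was -0.14 without the rat at 5106 CPM (1-S2). miR-139-3p ran from 42.2 (median 47.7) to 93.4 CPM against 42.8 (median 49.1) to 100.2. Its log2 fold change was 0.05 (SE 0.20), and -0.06 without 1-S2. Neither was called, where 3.66% of miRNAs were. The change was higher in adult-onset than in infancy-onset rats by 0.60 (SE 0.24) for 5p and by 0.45 (SE 0.28) for 3p.

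At 1 week both arms were slightly lower in adult-onset SE rats, with overlapping groups. miR-139-5p had 969.5, 1410.0 and 2197 CPM at the lowest, median and highest in SE rats and 1386, 1692 and 1924 in controls, a log2 fold change of -0.19 (SE 0.13). miR-139-3p had 20.2, 30.3 and 64.1 CPM against 29.1, 39.8 and 53.1, a log2 fold change of -0.34 (SE 0.19). Of 10 SE rats, 5 were below every control for each arm, and 1 rat (2-S4) was above every control for both. Without 2-S4 the log2 fold changes were -0.26 and -0.51. The oligodendrocyte miRNAs summed to 18218 CPM in 2-S4, against 7492 in the next rat of its group. Without 2-S5, which had the lowest 5p of its group and the highest choroid plexus sum, the log2 fold changes were -0.09 and -0.24. Neither arm was called, where 7.39% of 406 miRNAs were. In the same comparison all 8 neuron miRNAs had log2 fold changes below 0 (median -0.27, 0 called), and their summed CPM ran from 342876 to 484242 in SE rats and from 430600.0 to 559138 in controls. Of 6 microglia and myeloid miRNAs 4 were called up, and their sums ran from 1070.2 to 1994 and from 734 to 1265. Their part in the values of miR-139 was not tested.

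In infancy-onset SE rats at 1 week the levels overlapped widely with those of controls. miR-139-5p had 994, 1341 and 1513 CPM against 1006, 1197 and 1446, a log2 fold change of 0.09 (SE 0.09). miR-139-3p had 37.8, 46.9 and 66.3 CPM against 36.5, 53.1 and 63.4, a log2 fold change of -0.07 (SE 0.11). Neither was called, where 0.493% of miRNAs were. The acute difference of 5p in infancy-onset rats was thus not seen at 1 week, in other rats.

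At 3 months, when the adult-onset SE rats had seizures, both arms were lower in them with overlap. miR-139-5p had 585, 942 and 1428 CPM at the lowest, median and highest against 563, 1208 and 1645 in controls, a log2 fold change of -0.30 (SE 0.18). miR-139-3p had 25.98, 33.5 and 41.1 CPM against 29.35, 40.6 and 54.8, a log2 fold change of -0.39 (SE 0.14). For 3p 9 of 10 SE rats were below the control median and 3 below every control. The lowest control of both arms was 1 library, 3-S10, and the next lowest were at 715 CPM for 5p and 36.8 for 3p. In 3-S10 the liver and muscle miRNAs summed to 410.2 CPM, against at most 83.1 in the other controls of its group. Neither arm was called, where 1.36% of 442 miRNAs were. The median log2 fold change of all miRNAs in this comparison was -0.09. All 8 neuron miRNAs were again below 0 (median -0.28, 0 called), with sums from 275491 to 394062 CPM in SE rats and from 244795 to 519094 in controls. All 6 microglia and myeloid miRNAs were above 0 and 2 were called, with sums from 663 to 1026 against 463 to 696 CPM, and their part in the values of miR-139 was not tested.

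In infancy-onset SE rats at 3 months the mean of 3p was lower than in controls and that of 5p was about the same, with overlapping groups. miR-139-5p had 566, 1130.0 and 1202 CPM against 721, 1045 and 1500.0 in controls, with a log2 fold change of -0.01 (SE 0.19). miR-139-3p had 17.8, 35.9 and 60.0 CPM against 33.6, 54.4 and 68.3, with a log2 fold change of -0.42 (SE 0.20). For 3p 9 of 10 SE rats were below the control median and 4 below every control. The lowest 3p value came from 6 reads in 3-S24. The mean ratio was 4.73 ± 0.83 in SE rats and 4.31 ± 0.58 in controls, a difference of 0.42 (standard error 0.33) that is smaller than either SD. Of 142 pairs, 36 had a larger difference in either direction. Neither arm was called, and 0.0% of miRNAs were with edgeR and 0 with DESeq2, while 23 had an unadjusted p under 0.05 with edgeR.

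**Figure D4:**
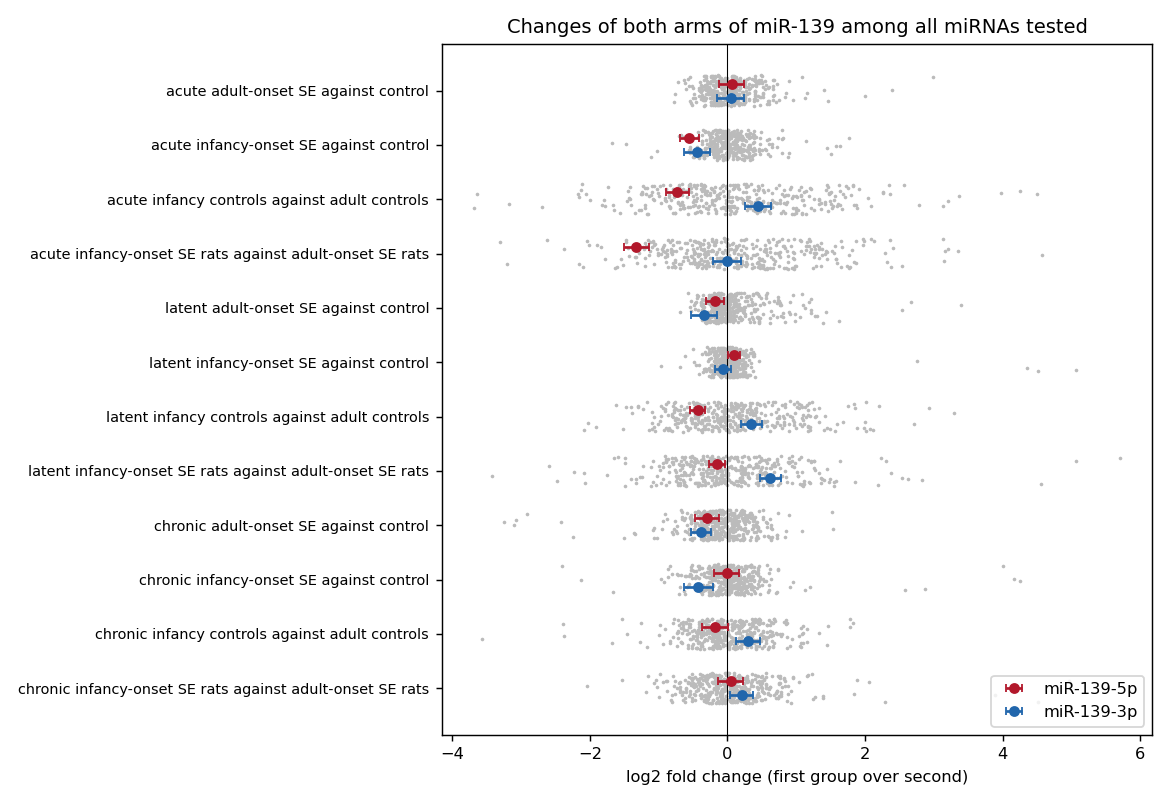
log2 fold change of miR-139-5p (red) and miR-139-3p (blue) with bars of 1 standard error, over the values of all miRNAs tested (grey points), in 12 comparisons. Among SE against control comparisons the 5p arm is farthest from 0 in the acute infancy-onset rats, at -0.55, and in all 3 comparisons of controls by age the 5p point lies left and the 3p point right of 0.

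Over the 6 comparisons of SE rats with controls, the log2 fold change of miR-139-3p was below 0 in 5, and that of miR-139-5p in 4, of which the chronic infancy-onset value of -0.01 changed sign with single libraries left out. The largest change of the ratio with SE, 0.42, was smaller than the age difference of the acute and latent controls. The ratio moved by -0.07 and -0.10 at 24 hours, by 0.18 and 0.16 at 1 week and by 0.08 and 0.42 at 3 months, in adult-onset and infancy-onset rats.

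miRNAs that, like miR-139-5p, are known to act on glutamate receptor subunits or their synapses were examined beside it. The list was chosen with earlier results of these data known, so its adjusted p-values are a description. Of the 9, among them miR-125b-5p, miR-219a-5p and miR-124-3p, 2 rose in acute adult-onset SE rats. These were miR-223-3p, a myeloid miRNA that also targets receptor subunits, with a log2 fold change of 2.39 (SE 0.41, edgeR adjusted p = 0.00124), and miR-132-3p, which is induced by neuronal activity, with 0.85 (SE 0.19, edgeR adjusted p = 0.0137). The rise of miR-223-3p was uneven between rats, at 175.4 ± 187.3 CPM (mean ± SD) against 33.7 ± 12.7 in controls. In acute infancy-onset SE rats miR-132-3p alone rose, by a log2 fold change of 0.90 (SE 0.14, edgeR adjusted p = 0.000129), and in latent adult-onset SE rats miR-92a-3p rose, by 0.78 on that scale (SE 0.24, edgeR adjusted p = 0.047). None of the 9 was called in the other 3 comparisons, and 0 fell in any of the 6. Over all miRNAs 3.66%, 4.96% and 7.39% were called in the 3 comparisons with a call. The median of the list was 0.11 in acute infancy-onset rats, where miR-139-5p was at -0.55 and the median of all miRNAs at 0.00. Between controls 5 of the 9 were called lower and 2 higher in infancy at 24 hours, where 67.1% of all miRNAs were called in either direction, and 4 lower and 1 higher at 1 week, where 57.6% were, so these shares are near those of all miRNAs. The list's median there was -0.39 and -0.21, against 0.04 and 0.01 over all miRNAs, and 0 were called at 3 months.

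The miRNAs of the miR-132 and miR-212 cluster, which follow neuronal activity, moved opposite to miR-139-5p in infancy-onset rats at 24 hours. Their list was also chosen with earlier results of these data known, so its adjusted p-values are a description. Of 5 activity-regulated miRNAs tested, 4 rose and 0 fell in each onset age, where 3.66% of all miRNAs were called after adult onset and 4.96% after onset in infancy. The 4 were both arms of miR-132 and of miR-212, members of 1 cluster, so they are not independent of each other. The other one tested, miR-134-5p, was not called in either. In infancy-onset rats miR-212-3p rose by a log2 fold change of 1.57 (SE 0.19, edgeR adjusted p = 4.65e-06) and miR-132-5p by 1.14 (SE 0.13, edgeR adjusted p = 4.02e-06), and the list's median was 1.14. In adult-onset rats the median was 0.85, with miR-212-3p at 1.46 (SE 0.26, edgeR adjusted p = 0.0017), where miR-139-5p was at 0.06. At 1 week 2 of the 5 were called up in adult-onset rats (7.39% of all miRNAs called) and 1 in infancy-onset rats (0.493% called), and at 3 months 0 of 6 in either. Between controls 4 of the 5 were called lower and 1 higher in infancy at 24 hours, and the same counts held at 1 week, where 67.1% and 57.6% of all miRNAs were called. The 1 called higher was miR-134-5p at both times.

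The miRNAs whose 9 log2 fold changes (6 of SE against control and 3 between controls) lay nearest to those of each arm were found among 379 miRNAs past the read minimum in every stage. For miR-139-5p these were miR-330-3p (root mean square difference 0.17), miR-138-5p (0.20), miR-138-2-3p (0.21), miR-30c-5p (0.21) and miR-1843a-3p (0.22). The median over all miRNAs was 0.52. miR-138-5p, a neuronal miRNA, had -0.29 in acute infancy-onset SE rats and -0.49 between acute controls, and miR-330-3p had -0.54 and -0.83. The neuron list of 8 that holds miR-138-5p had 4 above 0 and 4 below in the first comparison, with a median of 0.007. In the second it had 2 above 0 and 6 below, with a median of -0.37. For miR-139-3p the nearest were miR-7a-2-3p (0.18), miR-300-5p (0.22), miR-345-3p (0.23), miR-485-3p (0.24) and miR-543-3p (0.24). Neither arm was near the other. miR-139-3p came 193rd in the order of likeness to miR-139-5p, and miR-139-5p 190th in that to miR-139-3p. The 9 comparisons share control libraries, and the order is a description.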

How the data were processed

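Total RNA of the hippocampus was made into libraries with the NEXTflex Small RNA kit and sequenced on a NextSeq 500. The authors trimmed adapters, kept reads by quality and length, and matched them with seqBuster, at most 1 mismatch allowed, to miRBase. The deposited raw counts are whole reads per mature miRNA. The deposited signal is the authors' normalized reads, equal to the counts divided by 1 size factor per library, and was used only to check the counts. DESeq2 1.16.1 is named in the submitters' processing notes. Of 120 labelled libraries 114 are used, and libraries under 300000 miRNA reads were not processed further by the study. No 2 libraries of a stage held identical counts.

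Counts were fitted in R 4.3.3 with the quasi-likelihood test of edgeR 4.0.16, with TMM scaling, over miRNAs with more than 500 reads summed over a stage (383, 406 and 442). p-values were adjusted by Benjamini-Hochberg, and a call needs an adjusted p under 0.05. SE was compared with control in fits of 2 groups, and ages in fits of 4 groups. Standard errors (SE of the estimate) were taken as the absolute log2 fold change over the square root of F. Arm ratios are described without a test. The script was tested on simulated data. DESeq2 1.42.0, no read minimum, other groups in the fit, thinning to equal depth, another pseudocount and each library left out were alternatives. The miRNAs named are both arms, called members of the lists (at most 4 per list) and the 5 nearest profiles of each arm. The members and lists were chosen with earlier results of these data known. p-values, given for miRNAs of the lists, set a difference between groups against the spread between these rats.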

Additional observations from a re-analysis of the deposited data

Results flagged for a closer look

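In 3 of 36 sets of values (12 groups, both arms and their ratio) 1 rat lay far from the others of its group, where chance gives about 1 in 20. In acute adult-onset SE rats miR-139-5p was at 5106 CPM in 1-S2, and the next rat was at 2985. In acute adult controls miR-139-3p was at 100.2 CPM in 1-S15, and the next was at 64.9. In latent adult-onset SE rats miR-139-3p was at 64.1 CPM in 2-S4, and the next was at 38.1.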

How the results depend on the processing

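No paired analysis was possible because the labels give no replicate numbers shared between groups. Of the values on miR-139, all kept their direction and their side of the threshold under every alternative fit that used all libraries, except these. With all 4 groups in 1 fit, miR-139-5p in acute infancy-onset SE rats against controls was at -0.53 and not called. Without a read minimum, miR-139-3p between acute controls was at 0.40 and not called. Between latent controls it was called at 0.33 with 2 groups only and at 0.45 after thinning to equal depth. Thinning turned the chronic adult-onset SE change of the ratio to -0.15. With 2 groups only, miR-139-3p in acute SE rats by age was at 0.0074. The SE rats by age were added after the data were seen. The cause of these shifts was not tested.

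Leaving out 1 library at a time gave, for miR-139-5p, -0.14 (without 1-S2) to 0.12 in acute adult-onset SE rats, -0.62 to -0.50 in acute infancy-onset SE rats, -0.075 to 0.077 in chronic infancy-onset SE rats and -0.016 to 0.12 in chronic SE rats by age. For miR-139-3p it gave -0.072 (without 1-S1) to 0.17 in acute adult-onset SE rats, -0.59 to -0.35 in acute infancy-onset SE rats, 0.39 to 0.60 between acute controls, 0.31 to 0.39 between latent controls and -0.16 to 0.11 in acute SE rats by age. The ratio went from -0.13 to 0.0016 (without 1-S1) in acute adult-onset SE rats, from -0.031 (without 3-S7) to 0.17 in chronic adult-onset SE rats and from -0.23 to 0.075 (without 3-S23) in chronic SE rats by age. Its acute age difference stayed between -1.29 and -1.15 in controls and between -1.31 and -1.18 in SE rats.

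Counts of called miRNAs moved more. In acute adult-onset rats they went from 14 to 30 with all 4 groups in 1 fit and from 7 (without 1-S2) to 20 over left-out libraries. In acute infancy-onset rats they went from 19 to between 9 (without 1-S37) and 31. In latent adult-onset rats they went from 30 to 54 with 4 groups and to between 18 and 43. In latent infancy-onset rats they went from 2 to 10 with DESeq2, 4 with 4 groups, 1 without a read minimum, 1 after thinning and 0 to 10 over left-out libraries. In chronic adult-onset rats they went from 6 to 13 with DESeq2 and to between 4 and 19 (without 3-S7). Between chronic controls they went from 29 to 45 with DESeq2, 9 with 2 groups and between 13 and 74 (without 3-S7), and between chronic SE rats by age from 62 to between 38 and 68. Depth limits miR-139-3p most, with 6 to 1134 reads a library.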
